A study of Homo sapiens with 6 samples.

Results

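The aminoacyl-tRNA synthetases, the enzymes that load each tRNA with its amino acid, were followed by 36 genes, chosen by symbol from the 23344 rows of the deposited expression table. Of these genes, 20 encode cytosolic enzymes and 16 encode mitochondrial ones. GARS and KARS, whose products serve both compartments, were counted with the cytosolic genes. All 36 were in the table once each, and all passed the filter on low values. Libraries were compared between Huh7 cells with a VersicanV1 knockdown lentivirus, labelled sh2, and Huh7 cells with a control lentivirus, labelled shNC, at 3 libraries per group. Huh7 is an established human liver cancer line, and versican, encoded by VCAN, is a large proteoglycan of the extracellular matrix. Only 1 hairpin, sh2, is named for the knockdown. Whether the 3 libraries per group are separate cultures is not stated, so the p-values cover library-to-library spread alone, and this could be technical.

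Each synthetase recognises its amino acid and its tRNAs and joins them at the expense of ATP, which fixes the meaning of the genetic code. Class I and class II enzymes differ in the fold of their catalytic domain. In the cytosol, 8 of the genes followed here encode enzymes of the multisynthetase complex, which is held together by the scaffold proteins AIMP1, AIMP2 and EEF1E1. The mitochondrial enzymes are encoded in the nucleus and charge the tRNAs used to translate the mitochondrial genome. When amino acids run short, uncharged tRNA activates the kinase GCN2, phosphorylation of eIF2-alpha favours translation of the transcription factor ATF4, and ATF4 induces amino acid transporters, biosynthetic enzymes and many cytosolic synthetase genes. Liver cells make large amounts of secreted protein and depend on this supply of charged tRNA.

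Values were treated as FPKM, a level per length of transcript. VCAN, the targeted gene, had 1.90, 1.74 and 1.64 FPKM in knockdown replicates 1, 2 and 3, against 4.79, 6.24 and 8.10 FPKM in control replicates 1, 2 and 3 (log2 fold change -1.39, SE 0.19, limma adjusted p = 0.0103). The 8 hepatocyte markers were present in every library, with summed levels of 5745 to 7528 FPKM in knockdown and 5216 to 6499 FPKM in control libraries; of these, APOA1 rose and TTR fell. Knockdown replicate 2 held leukocyte transcripts: S100A8 was at 17.90 FPKM there and at 0 in the other 5 libraries, and PTPRC was at 1.96 FPKM, against at most 0.16 elsewhere. The summed level of the 8 leukocyte markers was 106, 205 and 105 FPKM in knockdown replicates 1, 2 and 3, and 71.7 to 90.2 FPKM in control libraries. CD14, at 45.64 to 72.51 FPKM, and LYZ, at 18.30 to 68.21 FPKM, carried most of that sum in every library. Outside knockdown replicate 2, PTPRC, CD3E, NKG7, CD74 and S100A8 were each at most at 0.37 FPKM. LYZ, from that list, rose. HBA1, the erythroid marker in the table, stayed between 0.35 and 1.90 FPKM, and of the 4 fibroblast markers measured, 3 were below 1 FPKM in every library, and the other, LUM, was at 147.48 to 172.97 FPKM in knockdown and 162.84 to 182.83 FPKM in control libraries. Mitochondrially encoded genes took 23.8%, 27.0% and 31.2% of the summed values in the knockdown libraries and at most 19.2% in control libraries. Their part in the results below was not tested beyond the rescaling given there. In bulk libraries, fewer expressing cells and less RNA per cell cannot be told apart.

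Cytosolic synthetase transcripts were more abundant than mitochondrial ones in both groups. The median over the 20 cytosolic genes was 64.2 FPKM in knockdown and 75.5 FPKM in control libraries, and that over the 16 mitochondrial genes was 9.47 FPKM in knockdown and 11.0 FPKM in control libraries. The most abundant was MARS, the methionyl-tRNA synthetase gene, with a mean of 217 ± 46.1 FPKM in knockdown and 165 ± 13.8 FPKM in control libraries (SD, n = 3 each). The least abundant cytosolic gene was WARS, for tryptophan, with 17.6 ± 3.51 FPKM in knockdown and 28.3 ± 4.49 FPKM in control libraries (SD, n = 3 each). Among mitochondrial genes the order ran from RARS2, for arginine, with 51.0 ± 3.03 FPKM in knockdown and 56.5 ± 3.87 FPKM in control libraries, down to PARS2, for proline, with 3.63 ± 0.147 and 3.78 ± 0.0907 FPKM in knockdown and control libraries.

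Most neighbours in these orders were not separated. In the control libraries the ranges of neighbouring genes overlapped for 14 of 19 cytosolic steps and for 10 of 15 mitochondrial steps. The cytosolic steps without overlap lay below TARS, AARS, FARSA, HARS and SARS. For 13 amino acids the table holds a separate gene for each compartment, and the cytosolic one had the higher mean in all 13 in both groups. The ratio of the cytosolic to the mitochondrial level had a median of 3.63 in knockdown and 5.20 in control libraries. Both medians were those of the tryptophan pair, WARS and WARS2. The ratio was higher in knockdown for alanine, cysteine, isoleucine, leucine, methionine and threonine, and lower for the other amino acids. It was smallest for serine, at 1.25 in knockdown and 1.33 in control libraries, and largest for methionine, at 42.2 in knockdown and 28.2 in control libraries. The plot of levels by library shows both compartments.

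**Figure D1:**
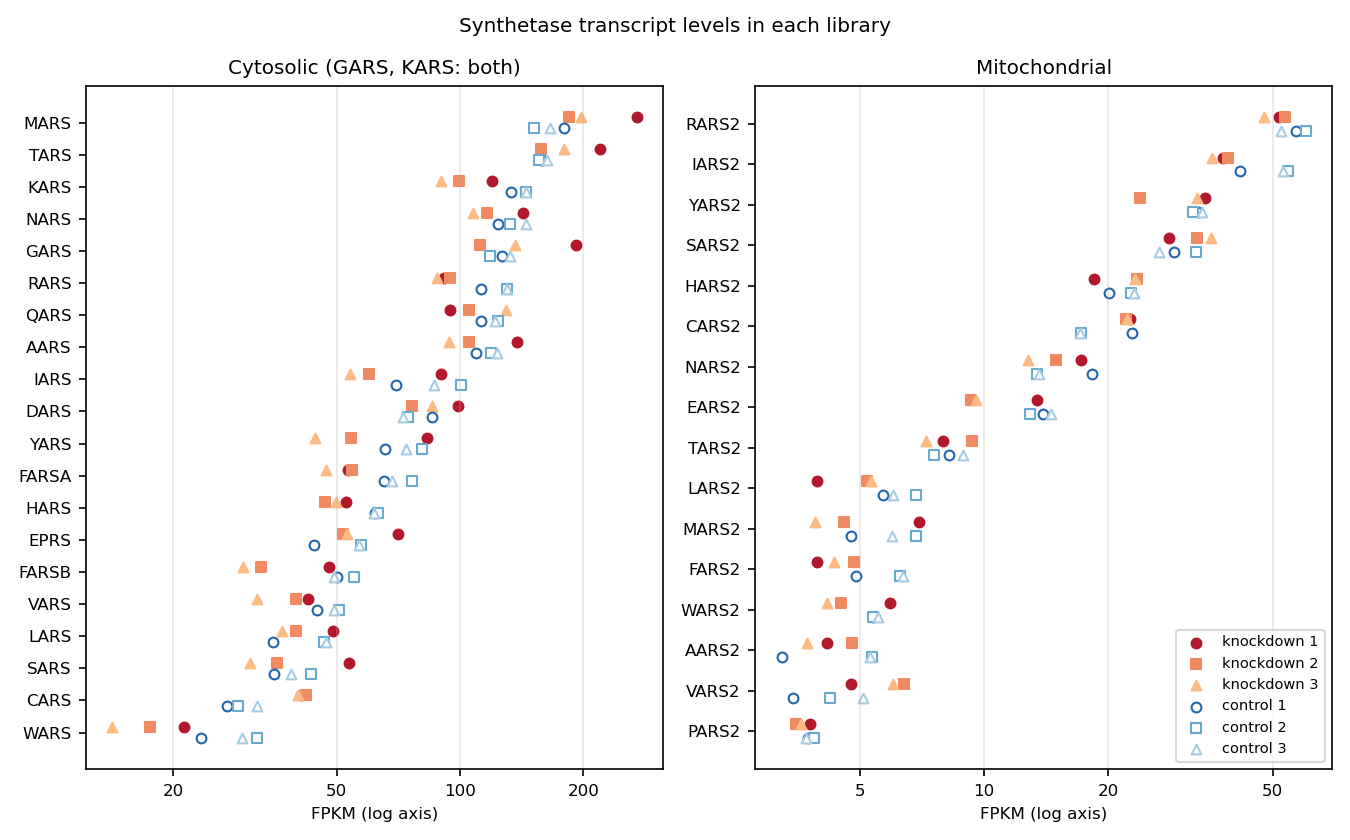
Level of each synthetase gene in each library, in FPKM on a log axis, with genes ordered by their control mean; filled points are knockdown libraries and open points control libraries. Cytosolic genes lie between 14.20 and 269.74 FPKM and mitochondrial genes between 3.23 and 60.16 FPKM.

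Between the groups, 1 of the 36 synthetase genes rose and 1 fell with all libraries in the test. Of all genes, 568 of the 13696 tested rose and 539 fell (limma, Benjamini-Hochberg adjusted p below 0.05), which is 4.15% higher and 3.94% lower, or 8.08% in either direction. The synthetase counts were thus near the background of the table. The gene that rose was CARS and the gene that fell was RARS, both cytosolic, and none of the 16 mitochondrial genes was called. At an unadjusted p below 0.05 there were 9 of 20 cytosolic genes and 1 of 16 mitochondrial genes, against 4019 of 13696 genes tested, or 29.3%. The median log2 fold change was -0.13 over the cytosolic genes, -0.11 over the mitochondrial genes and -0.03 over all genes tested. After rescaling each library to its total without mitochondrially encoded genes these medians were -0.03, -0.01 and 0.06.

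CARS, which charges tRNA with cysteine, was at 40.95, 42.21 and 40.26 FPKM in knockdown replicates 1, 2 and 3, against 27.03, 28.67 and 32.01 FPKM in control replicates 1, 2 and 3. Every knockdown library was above every control library, and the 3 knockdown values lay close together. The log2 fold change was 0.48 (SE 0.11, limma adjusted p = 0.0384). RARS, the arginyl-tRNA synthetase of the multisynthetase complex, was at 91.65, 94.33 and 87.85 FPKM in knockdown replicates 1, 2 and 3, against 112.29, 130.59 and 130.47 FPKM in control replicates 1, 2 and 3. Every knockdown library was below every control library. The log2 fold change was -0.44 (SE 0.11, limma adjusted p = 0.0445).

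Neither call was firm. CARS passed in 5 of 13 alternatives, with an adjusted p from 0.0196 to 0.138, and RARS in 2 of 13, with an adjusted p from 0.0227 to 0.155. Leaving out any library other than knockdown replicate 1 ended both calls. None of the 50-base stretches of the RARS transcript recurs in another annotated gene, and 1.77% of those of CARS also lie in its antisense gene CARS-AS1, which was not analysed here.

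The start regions of these genes are shown because they differ in a match to the C/EBP-ATF response element, the sequence through which ATF4 acts on many of its targets. The windows run from 250 bases before to 50 bases after the annotated start, 5′ to 3′ along the gene, from RefSeq on GRCh38.p14. Matches to TGATGNAAN on either strand are in capitals, and a match on the opposite strand reads NTTNCATCA. CARS has 2 annotated start windows: the one printed holds a match that begins at position -3, and the other, chr11:3040935-3041234, holds none. RARS has a single window, with no match.
CARS, chr11:3057374-3057673, minus strand: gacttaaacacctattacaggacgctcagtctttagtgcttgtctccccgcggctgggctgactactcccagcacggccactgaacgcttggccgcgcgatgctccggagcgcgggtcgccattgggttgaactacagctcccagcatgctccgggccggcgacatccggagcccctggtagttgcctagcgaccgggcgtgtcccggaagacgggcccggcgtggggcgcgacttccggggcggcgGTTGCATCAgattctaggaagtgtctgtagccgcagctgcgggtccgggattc
RARS, chr5:168486221-168486520, plus strand: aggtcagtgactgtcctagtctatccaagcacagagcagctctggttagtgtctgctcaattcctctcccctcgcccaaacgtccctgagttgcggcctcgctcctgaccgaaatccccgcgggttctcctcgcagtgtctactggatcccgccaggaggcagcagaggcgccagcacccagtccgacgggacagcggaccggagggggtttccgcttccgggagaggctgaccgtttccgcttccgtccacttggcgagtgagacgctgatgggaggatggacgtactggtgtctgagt

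WARS had the most negative fold change of the synthetases and did not pass. It was at 21.21, 17.53 and 14.20 FPKM in knockdown replicates 1, 2 and 3, against 23.31, 32.06 and 29.46 FPKM in control replicates 1, 2 and 3 (log2 fold change -0.66, SE 0.18, limma adjusted p = 0.0540). The groups did not overlap, and the spread within each was wide. Of the WARS transcript, 9.14% of the 50-base stretches also lie in genes on the other strand, WDR25 among them.

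The phenylalanyl-tRNA synthetase is built from a catalytic alpha subunit, FARSA, and a beta subunit, FARSB, and both were lower in every knockdown library. FARSA was at 53.36, 54.60 and 47.15 FPKM in knockdown replicates 1, 2 and 3, against 65.29, 76.28 and 68.40 FPKM in control replicates 1, 2 and 3 (log2 fold change -0.43, SE 0.12, limma adjusted p = 0.0547). FARSB was at 47.84, 32.64 and 29.55 FPKM in knockdown replicates 1, 2 and 3, against 50.04, 55.20 and 49.25 FPKM in control replicates 1, 2 and 3 (log2 fold change -0.51, SE 0.18, limma adjusted p = 0.102). Neither passed the test with all libraries. In knockdown replicate 1 FARSB was near its control range, while FARSA was not.

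KARS, the lysyl enzyme of the complex that is also imported into mitochondria, was at 119.56, 99.26 and 89.82 FPKM in knockdown replicates 1, 2 and 3, against 133.54, 144.57 and 144.55 FPKM in control replicates 1, 2 and 3 (log2 fold change -0.46, SE 0.13, limma adjusted p = 0.0587). HARS, for histidine, was at 52.73, 46.76 and 49.98 FPKM in knockdown replicates 1, 2 and 3, against 62.13, 63.12 and 61.60 FPKM in control replicates 1, 2 and 3 (log2 fold change -0.32, SE 0.10, limma adjusted p = 0.0881). VARS, for valine, was at 42.65, 39.74 and 31.93 FPKM in knockdown replicates 1, 2 and 3, against 44.71, 50.72 and 49.17 FPKM in control replicates 1, 2 and 3 (log2 fold change -0.34, SE 0.13, limma adjusted p = 0.141). All 3 genes had groups that did not overlap, and none passed. Among the 36 synthetases, 10 had all knockdown values below all control values, and 2, CARS and MARS, had all of them above. Over all genes tested the corresponding shares were 18.7% and 14.4%.

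HARS starts head to head with HARS2, its mitochondrial counterpart for histidine, and the start windows of both genes share 184 bases. HARS2 was at 18.44, 23.52 and 23.19 FPKM in knockdown replicates 1, 2 and 3, against 20.08, 22.70 and 23.13 FPKM in control replicates 1, 2 and 3, with groups that overlapped (log2 fold change -0.02, SE 0.14, limma adjusted p = 0.937). The sign of this HARS2 value flipped with quantile normalization and with both rescalings. The difference between HARS and HARS2 was not tested, and 15.7% of the 50-base stretches of HARS2 also lie in HARS on the other strand or in ZMAT2. The HARS2 window from RefSeq on GRCh38.p14 is given to show the shared start, with the bases that also lie in the HARS window in capitals.
HARS2, chr5:140691205-140691504, plus strand: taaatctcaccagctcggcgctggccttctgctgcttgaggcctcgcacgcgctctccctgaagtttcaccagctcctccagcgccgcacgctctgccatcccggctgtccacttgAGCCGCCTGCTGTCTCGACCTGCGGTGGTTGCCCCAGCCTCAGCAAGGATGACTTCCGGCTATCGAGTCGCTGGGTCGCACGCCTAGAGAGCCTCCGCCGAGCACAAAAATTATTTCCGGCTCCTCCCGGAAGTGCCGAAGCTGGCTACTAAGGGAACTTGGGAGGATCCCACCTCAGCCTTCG

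Of the mitochondrial enzymes, IARS2, for isoleucine, had the smallest p. It was at 37.89, 38.99 and 35.65 FPKM in knockdown replicates 1, 2 and 3, against 41.74, 54.43 and 52.98 FPKM in control replicates 1, 2 and 3 (log2 fold change -0.39, SE 0.13, limma adjusted p = 0.095). Every knockdown library was below every control library, the lowest control being close to the knockdown values. FARS2, the mitochondrial phenylalanyl enzyme, was at 3.93, 4.85 and 4.32 FPKM in knockdown replicates 1, 2 and 3, against 4.90, 6.26 and 6.37 FPKM in control replicates 1, 2 and 3 (log2 fold change -0.35, SE 0.15, limma adjusted p = 0.174). EARS2, which charges mitochondrial tRNA with glutamate, was at 13.46, 9.30 and 9.54 FPKM in knockdown replicates 1, 2 and 3, against 13.89, 12.92 and 14.55 FPKM in control replicates 1, 2 and 3 (log2 fold change -0.35, SE 0.16, limma adjusted p = 0.188).

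VARS2, for valine, was the mitochondrial gene with the most positive fold change. It was at 4.77, 6.40 and 6.03 FPKM in knockdown replicates 1, 2 and 3, against 3.45, 4.22 and 5.09 FPKM in control replicates 1, 2 and 3, with overlapping groups (log2 fold change 0.36, SE 0.17, limma adjusted p = 0.204). Its cytosolic counterpart VARS had a fold change of the opposite sign, and the difference between them was not tested. In 10 of the 13 pairs for the same amino acid the fold changes had the same sign in both compartments. Of the 16 mitochondrial genes, 3 had a positive and 13 a negative log2 fold change, from -0.39 to 0.36. For AARS2, HARS2, NARS2, PARS2, TARS2 and YARS2 that sign flipped in some alternative. SARS2 shares 86.9% of its 50-base stretches with an overlapping annotated gene and with MRPS12, so its level is uncertain. The plot of fold changes shows every synthetase gene.

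**Figure D2:**
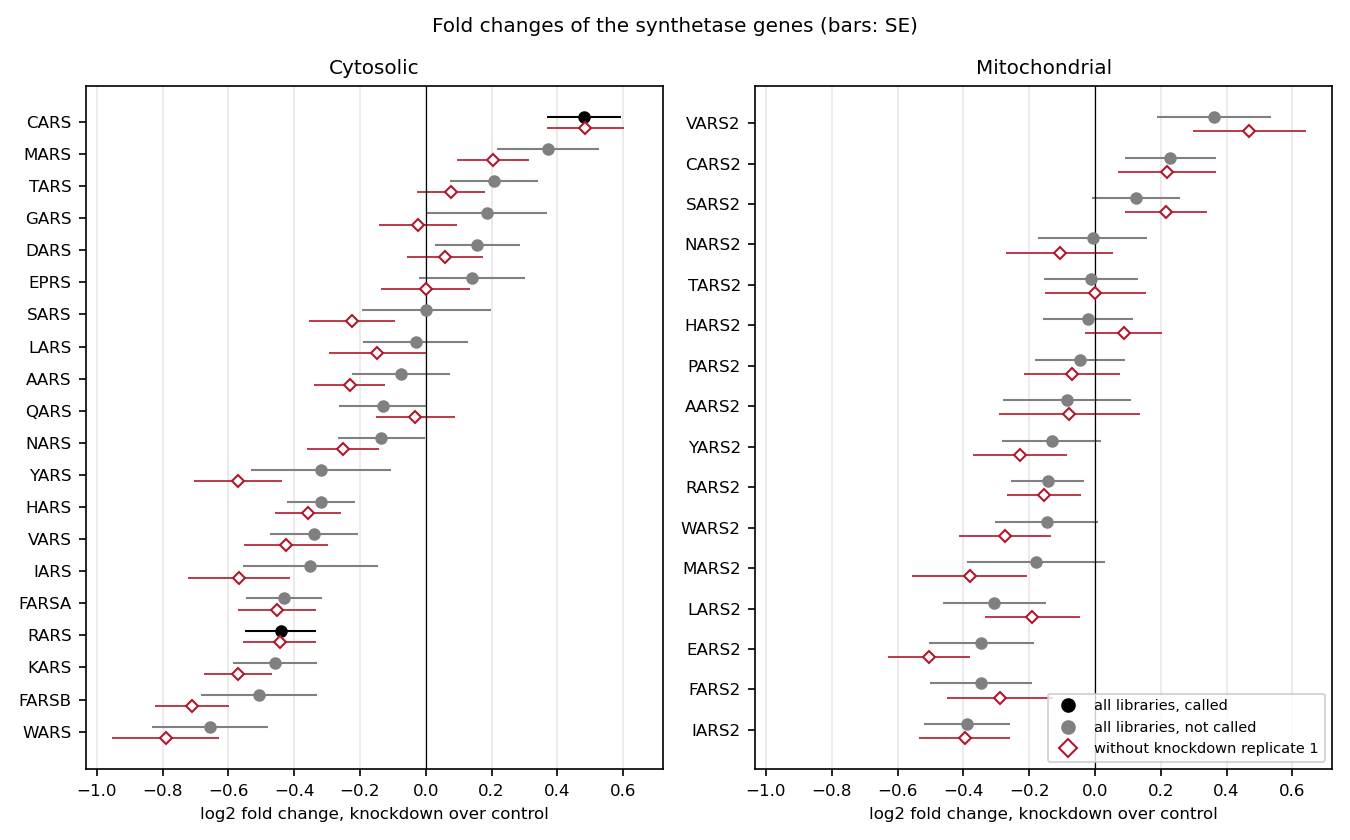
Log2 fold change, knockdown over control, of each synthetase gene with its SE on the log2(FPKM + 1) scale; circles use all libraries (black, called at an adjusted p below 0.05; grey, not called) and open diamonds leave out knockdown replicate 1. CARS and RARS are the called genes, and many cytosolic diamonds lie to the left of their circles.

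Knockdown replicate 1 stood apart from the other knockdown libraries in many cytosolic synthetase genes. In 18 of 20 cytosolic genes it was above the mean of knockdown replicates 2 and 3 on the log2 scale, with a median difference of 0.37. In the mitochondrial genes this held for 9 of 16, with a median difference of 0.03, and over all genes tested the median difference was -0.05. The summed level of the 20 cytosolic genes was 1972, 1525 and 1539 FPKM in knockdown replicates 1, 2 and 3, against 1663, 1785 and 1792 FPKM in control replicates 1, 2 and 3. The summed level of the 16 mitochondrial genes was 265, 262 and 257 FPKM in knockdown replicates 1, 2 and 3, against 275, 292 and 281 FPKM in control replicates 1, 2 and 3.

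Among the synthetases, the genes for which knockdown replicate 1 was the highest library were mostly those known as ATF4 targets. Of the cytosolic genes, 12 are commonly listed as ATF4 targets, a list taken from general knowledge: AARS, CARS, EPRS, GARS, IARS, LARS, MARS, NARS, SARS, TARS, WARS and YARS. In 8 of these 12 genes knockdown replicate 1 was the highest of the 6 libraries, in 1 of the other 8 cytosolic genes (DARS, for aspartate), in 3 of 16 mitochondrial genes and in 13.0% of all genes tested. It was above the mean of knockdown replicates 2 and 3 in 11 of the 12 genes and also in 7 of the other 8. The median log2 differences were 0.45 and 0.19. The lists were chosen with earlier results of these data known, so this split is not an independent test. Against the control mean, the 12 genes had a median log2 difference of 0.33, -0.14 and -0.26 in knockdown replicates 1, 2 and 3, and of -0.13 to 0.08 in control libraries. The other 8 cytosolic genes had medians of -0.24, -0.37 and -0.53 in knockdown replicates 1, 2 and 3, and of -0.08 to 0.06 in control libraries. The mitochondrial medians were -0.04, -0.08 and -0.20 in knockdown replicates 1, 2 and 3. The plot by library shows these 3 groups of genes.

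**Figure D3:**
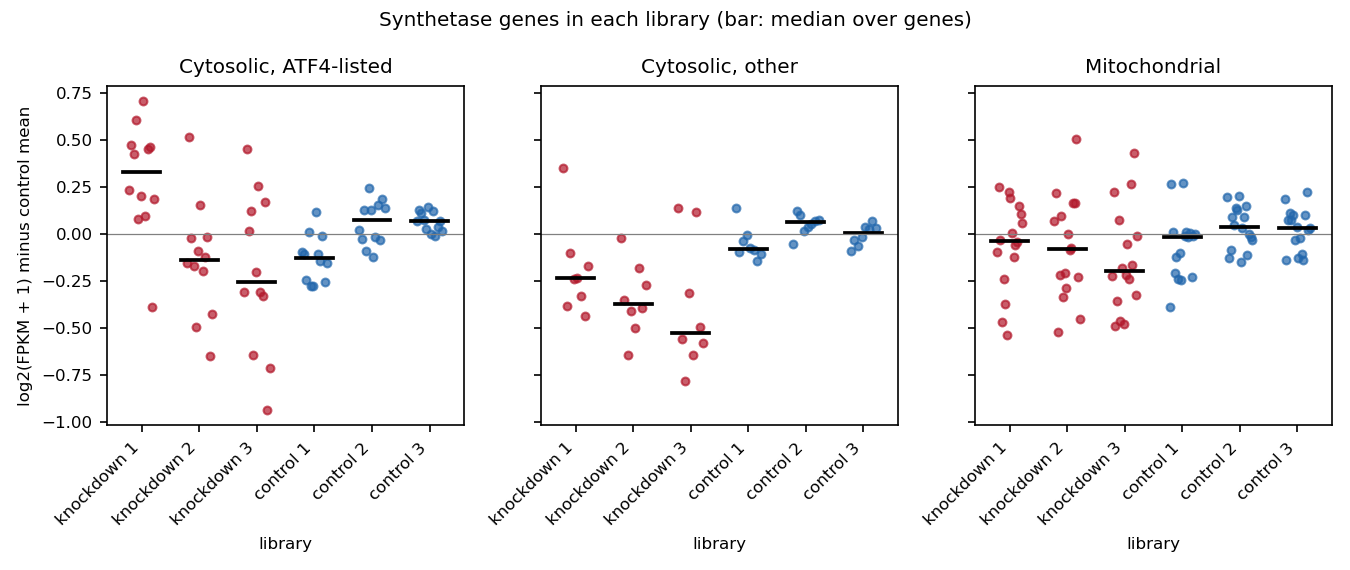
Each point is a synthetase gene in a library, as log2(FPKM + 1) minus its mean over the control libraries, with knockdown libraries in red and control libraries in blue; bars are medians over genes. The median of the 12 cytosolic genes listed as ATF4 targets is 0.33 in knockdown replicate 1 and negative in knockdown replicates 2 and 3, while that of the other 8 is negative in all 3.

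The genes for the methionine, glycine and threonine enzymes are described as examples, chosen after their values were seen. MARS was at 269.74, 184.18 and 197.04 FPKM in knockdown replicates 1, 2 and 3, against 179.30, 151.64 and 165.43 FPKM in control replicates 1, 2 and 3. GARS, for glycine, was at 191.50, 111.73 and 136.62 FPKM in knockdown replicates 1, 2 and 3, against 126.60, 118.07 and 132.33 FPKM in control replicates 1, 2 and 3. TARS, for threonine, was at 219.83, 157.26 and 179.26 FPKM in knockdown replicates 1, 2 and 3, against 158.28, 155.75 and 163.28 FPKM in control replicates 1, 2 and 3. In each, knockdown replicate 1 was well above the other 5 libraries, by 1.37 times the highest of them for MARS, 1.40 times for GARS and 1.23 times for TARS. None passed the test (log2 fold changes 0.37, 0.19 and 0.21, limma adjusted p = 0.154, 0.533 and 0.341 for MARS, GARS and TARS). Of the 50-base stretches of MARS, 0.455% also lie in DDIT3 on the other strand.

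SARS, for serine, and YARS, for tyrosine, also varied widely among the knockdown libraries, and were chosen in the same way. SARS was at 53.58, 35.72 and 30.79 FPKM in knockdown replicates 1, 2 and 3, against 35.12, 43.37 and 38.65 FPKM in control replicates 1, 2 and 3. YARS was at 83.29, 54.14 and 44.19 FPKM in knockdown replicates 1, 2 and 3, against 65.54, 80.66 and 73.87 FPKM in control replicates 1, 2 and 3. Knockdown replicate 1 was the highest library for both genes and knockdown replicate 3 the lowest. In 4 of the 12 listed genes another library was the highest: control replicate 2 for WARS and IARS, control replicate 3 for NARS, and knockdown replicate 2 for CARS, which was similarly high in all 3 knockdown libraries.

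Start windows of 7 of the 10 genes listed as ATF4 targets with a RefSeq window held a match to TGATGNAAN in at least 1 of the gene's windows: AARS, CARS, GARS, IARS, MARS, NARS and TARS. It was found in 0 of 6 other cytosolic genes, in 1 of 14 mitochondrial genes (YARS2) and, counted in the same way, in 4.45% of 27305 genes with a window. A window was found for 30 of the 36 genes, and AARS2, DARS, LARS, VARS, VARS2 and YARS had none. Among the ATF4 and amino acid response genes described below, 6 of the 20 with a window held a match. Of the genes with a match, ASNS, CEBPG, SLC1A5, SLC3A2 and SLC7A1 were highest in knockdown replicate 1, and CHAC1 was lowest in it. Of those with a window and no match, PSAT1, PHGDH, MTHFD2, DDIT4, SLC7A5, CEBPB and STC2 were also highest in it. ATF4, DDIT3, TRIB3, SESN2, SLC38A2, ATF5 and VLDLR, likewise without a match, were not. Whether a match goes with the level in that library was not tested. A match is a run of letters and does not show that a factor binds there. The windows of MARS, TARS and GARS are given because these genes were high in knockdown replicate 1, with the matches in capitals as before, from RefSeq on GRCh38.p14. The match begins at position -5 in MARS, +2 in TARS and -34 in GARS, counted from the start of the window printed. MARS has a single window, while TARS and GARS have 2 each, and their other windows, chr5:33440446-33440745 for TARS and chr7:30594485-30594784 for GARS, hold no match.
MARS, chr12:57487818-57488117, plus strand: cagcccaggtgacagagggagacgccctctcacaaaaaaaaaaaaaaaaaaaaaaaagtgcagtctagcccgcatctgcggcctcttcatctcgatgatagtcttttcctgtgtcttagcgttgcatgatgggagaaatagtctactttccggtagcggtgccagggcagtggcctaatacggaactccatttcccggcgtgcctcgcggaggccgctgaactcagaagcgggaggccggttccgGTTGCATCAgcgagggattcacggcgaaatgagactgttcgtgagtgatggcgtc
TARS, chr5:33440715-33441014, plus strand: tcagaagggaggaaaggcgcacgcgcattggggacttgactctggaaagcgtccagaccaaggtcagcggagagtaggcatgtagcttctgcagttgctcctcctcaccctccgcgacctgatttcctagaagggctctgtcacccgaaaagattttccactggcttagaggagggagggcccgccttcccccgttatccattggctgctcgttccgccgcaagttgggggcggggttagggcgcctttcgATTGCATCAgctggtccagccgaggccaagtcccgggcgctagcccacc
GARS, chr7:30594628-30594927, plus strand: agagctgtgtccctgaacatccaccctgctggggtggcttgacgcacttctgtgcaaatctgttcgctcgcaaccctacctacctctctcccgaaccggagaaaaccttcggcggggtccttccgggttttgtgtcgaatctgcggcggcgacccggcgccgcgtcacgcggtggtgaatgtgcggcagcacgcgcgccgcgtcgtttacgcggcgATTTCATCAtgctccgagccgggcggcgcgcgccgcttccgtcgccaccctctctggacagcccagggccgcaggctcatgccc

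Some genes of amino acid synthesis and uptake were high in the same library, and others were not. Of 24 ATF4 and amino acid response genes, 0 were called with all libraries (limma, 5 at an unadjusted p below 0.05, against 29.3% of all genes tested), and their median log2 fold change was 0.19. Knockdown replicate 1 was the highest library for 13 of the 24. ASNS, which makes asparagine, was at 286.08, 72.14 and 73.12 FPKM in knockdown replicates 1, 2 and 3, against 90.10, 90.22 and 83.97 FPKM in control replicates 1, 2 and 3. PSAT1, an enzyme of serine synthesis, was at 331.12, 104.86 and 90.21 FPKM in knockdown replicates 1, 2 and 3, against 142.88, 159.82 and 131.51 FPKM in control replicates 1, 2 and 3. SLC7A11, the cystine transporter, was at 9.21, 2.47 and 2.02 FPKM in knockdown replicates 1, 2 and 3, against 1.70, 2.19 and 1.82 FPKM in control replicates 1, 2 and 3. Each of these genes was at least 2.07 times as high in knockdown replicate 1 as in any other library, and they were chosen after their values were seen.

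Other genes of the same list did not follow. PSPH and SHMT2, which act in serine and glycine synthesis, and the amino acid transporter gene SLC38A2 were at 51.59, 163.8 and 125.76 FPKM in knockdown replicate 1, which is 0.913, 0.986 and 0.949 times the median of the other 5 libraries. ATF4 itself was at 360.83, 454.78 and 501.04 FPKM in knockdown replicates 1, 2 and 3, against 379.46, 341.41 and 343.68 FPKM in control replicates 1, 2 and 3. DDIT3, which encodes the stress factor CHOP, was at 18.89, 22.67 and 23.38 FPKM in knockdown replicates 1, 2 and 3, against 17.18, 18.35 and 15.37 FPKM in control replicates 1, 2 and 3. CHAC1, a glutathione-degrading enzyme gene, was lowest in knockdown replicate 1, at 2.75 FPKM. For ATF4, DDIT3 and CHAC1 knockdown replicate 1 was below knockdown replicates 2 and 3, unlike ASNS and PSAT1. No label explains what set knockdown replicate 1 apart, and its cause was not tested.

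**Figure D4:**
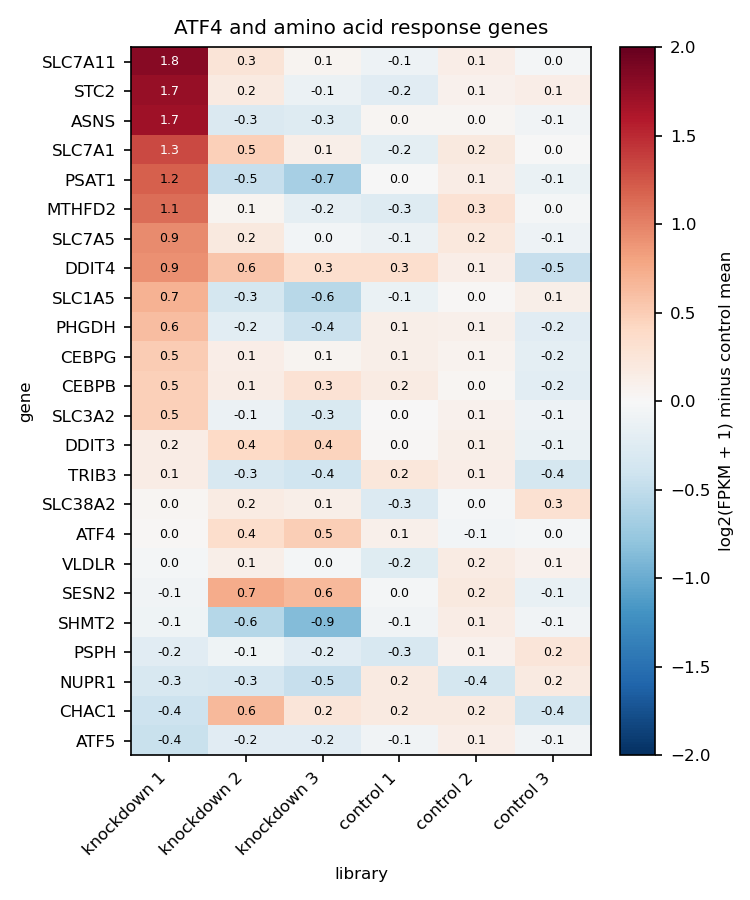
ATF4 and amino acid response genes, as log2(FPKM + 1) minus the mean of the control libraries, in each library, with genes ordered by knockdown replicate 1. The upper genes, with ASNS, SLC7A11 and PSAT1 among them, are high in knockdown replicate 1 and not in knockdown replicates 2 and 3.

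Without knockdown replicate 1 the number of synthetase genes called was larger. CARS rose and 10 genes fell: FARSA, FARSB, HARS, IARS, KARS, RARS, VARS, WARS and YARS among the cytosolic genes and EARS2 among the mitochondrial ones. Of the 13696 genes tested, 1638 then rose and 1704 fell, with 24.4% called in either direction and 12.4% called lower. The 9 of 20 cytosolic genes that fell were a larger share than in the table, and the 1 of 16 mitochondrial genes was not. Knockdown replicate 1 was already known to lie above the mean of knockdown replicates 2 and 3 in 18 of 20 cytosolic genes. Leaving it out lowers the fold changes of such genes by itself, so the larger share is not a separate result. The shift was small for RARS (log2 fold change -0.440 with all libraries and -0.443 without it), FARSA (-0.430 and -0.453) and HARS (-0.318 and -0.359). It was larger for the other cytosolic genes that fell. No synthetase was called when any other library was left out. The median log2 fold change without that library was -0.24 over cytosolic genes, -0.13 over mitochondrial genes and -0.02 over all genes tested. Of the 8 cytosolic genes outside the ATF4 list 6 fell, and of the 12 in it 3 fell and 1 rose, without a test of the difference. FARSB had a log2 fold change of -0.71 (limma adjusted p = 0.00431), WARS one of -0.79 (limma adjusted p = 0.0109) and YARS one of -0.57 (limma adjusted p = 0.0177). That test had 2 knockdown libraries, of which knockdown replicate 2 held the leukocyte transcripts, and their part was not tested.

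Most genes of the multisynthetase complex were not called. Of its 8 enzymes RARS fell and the others did not pass, with 3 positive and 5 negative fold changes and a median log2 fold change of -0.08. DARS, EPRS, LARS, MARS and QARS had log2 fold changes of 0.16, 0.14, -0.03, 0.37 and -0.13, and for EPRS and LARS the sign flipped in some alternative. The 12 cytosolic enzymes outside the complex had a median of -0.23. None of the 3 scaffold genes was called (limma, 1 at an unadjusted p below 0.05, against 29.3% of all genes tested). Without knockdown replicate 1 all 3 fell, against 12.4% of all genes tested. Knockdown replicate 1 was above the mean of knockdown replicates 2 and 3 in all 3, so this is not a separate result. EEF1E1 was at 94.18, 63.16 and 58.58 FPKM in knockdown replicates 1, 2 and 3, against 101.05, 104.68 and 99.20 FPKM in control replicates 1, 2 and 3 (log2 fold change -0.52, SE 0.17, limma adjusted p = 0.090). By catalytic fold, the 9 cytosolic class I genes had a median of -0.32 and the 10 class II genes one of -0.11, with the bifunctional EPRS counted in neither.

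Genes that act next to the synthetases were mostly not called. Of 9 genes of eIF2-alpha, its kinases and their regulators, and its phosphatase, 2 rose, against 4.15% of all genes tested. EIF2AK3, which encodes the endoplasmic reticulum stress kinase PERK, was at 15.93, 22.80 and 24.22 FPKM in knockdown replicates 1, 2 and 3, against 7.84, 12.07 and 10.63 FPKM in control replicates 1, 2 and 3 (log2 fold change 0.97, SE 0.20, limma adjusted p = 0.0289). PPP1R15A, the inducible phosphatase subunit that reverses eIF2-alpha phosphorylation, was at 67.15, 85.96 and 92.95 FPKM in knockdown replicates 1, 2 and 3, against 41.15, 40.81 and 35.63 FPKM in control replicates 1, 2 and 3 (log2 fold change 1.04, SE 0.14, limma adjusted p = 0.0105). Knockdown replicate 1 was the lowest of the knockdown libraries for both, in contrast to ASNS. EIF2AK4, which encodes GCN2, had a log2 fold change of 0.04 (limma adjusted p = 0.867). EIF2S1, which encodes eIF2-alpha, and EIF2AK1 were lower in every knockdown library and were not called (log2 fold changes -0.58 and -0.35, limma adjusted p = 0.0793 and 0.0655). In this list 5 fold changes were positive and 4 negative. The call of EIF2AK3 was lost without each library other than knockdown replicate 1 and when no low genes were filtered out, and that of PPP1R15A without control replicate 2.

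The delivery and completion steps gave no calls with all libraries. Of 6 cytosolic elongation factor genes, 11 mitochondrial translation factor genes, 4 genes of mitochondrial tRNA amidation and formylation, 2 genes of selenocysteine tRNA charging and 5 genes that edit mischarged tRNA or free peptidyl-tRNA, 0 were called (limma, 0, 4, 2, 1 and 1 at an unadjusted p below 0.05 in that order, against 29.3% of all genes tested). Their median log2 fold changes were -0.18, -0.19, -0.36, 0.08 and 0.05. The 4 amidation and formylation genes all had negative fold changes, between -0.58 and -0.12. QRSL1, the catalytic subunit that converts glutamate on mitochondrial tRNA to glutamine, was at 6.04, 8.45 and 7.69 FPKM in knockdown replicates 1, 2 and 3, against 9.58, 11.50 and 10.65 FPKM in control replicates 1, 2 and 3 (log2 fold change -0.47, SE 0.15, limma adjusted p = 0.0886).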

How the data were processed

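Total RNA of Huh7 cells was prepared for sequencing by an Illumina TruSeq kit, per the labels' protocols. The authors deposited 1 table of 23344 rows with a symbol, a human Ensembl gene ID and 1 column per library. Its values are treated as FPKM made by the authors, although the header names no unit, and TPM over a partial gene set cannot be told apart from it; totals per library run from 851418 to 975501. Per the submitters' processing notes, the tools included RSEM 1.1.17, Bowtie2 2.2.6, Trimmomatic 0.36 and bcl2fastq 2.19.0, with no role given, besides packages for count tests. They name the mouse build mm10 although every ID is human, so the build is uncertain and no coordinates of the files are given. Read depth is unknown, so no counting interval is given, and no source used here states whether counting used strand.

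The 13696 genes that reached 1 FPKM in 3 or more libraries were tested as log2(FPKM + 1), knockdown against control, by limma 3.58.1 (R 4.3.3) with trend and robust moderation, two-sided, adjusted by Benjamini-Hochberg over all genes tested. Fold changes are on that scale, which understates changes of low genes. "Rose" and "fell" mean an adjusted p below 0.05. With 3 against 3 libraries an exact permutation p is 0.1 at the smallest, so the calls rest on the spread shared over genes. The test was tested on simulated data, with changes larger than that of any synthetase gene and with no library set apart. This does not show how well it finds changes of the size seen here. The members and lists were chosen with earlier results of these data known. Library values are given for called genes and those of smallest p, at least 4 of them mitochondrial, and for called genes of the other lists; genes named beyond this were chosen after their values were seen. Symbols on 2 rows (KIAA0391, RPP14) were left out of the lists. Start windows are from RefSeq (GRCh38.p14), matched by symbol or gene ID, and the neighbouring genes and the shared stretches of 50 bases from GENCODE 29 transcripts. Alternatives were a pseudocount of 0.1, no filter, quantile normalization, rescaling without mitochondrially encoded genes (15 rows) or by TMM factors, the replicate block, unmoderated trend settings and leaving out each library.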

Additional observations from a re-analysis of the deposited data

How the results depend on the processing

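The synthetase counts depended on the libraries and settings used. Of 36 genes, 2 were called with all libraries, 0 with no filter on low values, with the replicate block or with limma without trend and robust moderation, and 1 (CARS) with quantile normalization, TMM factors or totals that leave out mitochondrially encoded genes; all calls in these were cytosolic. Leaving out each library gave 0 to 11 synthetases, 0 to 10 cytosolic ones and 0 to 1 mitochondrial ones, with the highest count without knockdown replicate 1 and 0 without any other library. The whole table gave 1107 genes, 221 with no filter, 727 with limma without trend and robust moderation, and 54 to 3342 with each library left out. Of the related genes, in lists of the sizes given above, 3 were called, against 8.08% of all genes tested, and 1 with no filter. Leaving out each library gave 0 to 26 of them. The 26 came without knockdown replicate 1, when 24.4% of all genes tested were called, so they are not read as a separate result. VCAN stayed lower throughout, from -1.56 to -1.23 on the log2 scale with each library left out, and lost its call without control replicate 2 (adjusted p = 0.0562). The cause of these shifts was not tested.

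Of 39 gene values, 28 kept their sign in all 13 alternatives. With quantile normalization AARS became 0.0027, LARS 0.021 and HARS2 0.0067. With totals that leave out mitochondrially encoded genes AARS became 0.032, LARS 0.076, AARS2 0.0020, HARS2 0.083, NARS2 0.095, PARS2 0.040 and TARS2 0.084. With TMM factors LARS became 0.014, HARS2 0.021, NARS2 0.035 and TARS2 0.027. With each library left out the log2 fold change ran from -0.23 to 0.041 for AARS, -0.00044 to 0.22 for EPRS, -0.023 to 0.36 for GARS, -0.17 to 0.057 for LARS, -0.22 to 0.17 for SARS, -0.28 to 0.015 for AARS2, -0.082 to 0.087 for HARS2, -0.11 to 0.13 for NARS2, -0.10 to 0.062 for TARS2 and -0.23 to 0.026 for YARS2. None of these genes was called in any alternative.

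The labels link libraries across the groups by a number only. Deviations from the group means correlated at 0.05, 0.10 and 0.14 for numbers 1, 2 and 3 (Pearson's r across genes, which are not independent replicates). Control replicate 1 and knockdown replicate 1 correlated better with another number, and the other libraries correlated best with their own. These weak correlations neither show nor exclude pairing. The replicate block left 0 synthetase calls. Precision is limited by 3 libraries per group and unknown depth.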

Other observations

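Of 14 genes of tRNA maturation and export tested, 1 fell, against 3.94% of all genes tested, so the count was near that share. POP5, a subunit shared by RNase P and RNase MRP, was at 25.64, 28.88 and 27.21 FPKM in knockdown replicates 1, 2 and 3, against 44.03, 35.79 and 45.42 FPKM in control replicates 1, 2 and 3 (log2 fold change -0.59, SE 0.13, limma adjusted p = 0.0324). Every knockdown library was below every control library, and the call was lost without each library other than knockdown replicate 1, with no filter, with the rescaling by totals that leave out mitochondrial transcripts, with the replicate block and with limma without trend and robust moderation, with an adjusted p of at most 0.0996. RPP30, another RNase P subunit, was at 30.68, 22.33 and 18.94 FPKM in knockdown replicates 1, 2 and 3, against 40.14, 38.14 and 35.34 FPKM in control replicates 1, 2 and 3, and did not pass (log2 fold change -0.66, SE 0.17, limma adjusted p = 0.0504). XPOT, the exporter of tRNA from the nucleus, was highest in knockdown replicate 1, at 64.35 FPKM, with 38.64 and 35.50 FPKM in knockdown replicates 2 and 3 and 40.95 to 55.21 FPKM in control libraries. Of 12 tRNA modification genes 0 were called (limma, 5 at an unadjusted p below 0.05, against 29.3% of all genes tested), with a median log2 fold change of -0.19.

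In GENCODE 29, 10 of the synthetase genes start within 1 kb of a protein-coding gene on the other strand. Among these neighbours, MRPS12, a mitochondrial ribosomal protein gene beside SARS2, fell (45.7 FPKM in knockdown and 65.7 FPKM in control libraries, log2 fold change -0.52, limma adjusted p = 0.0334), and ORC3, a gene of the origin recognition complex beside RARS2, fell (22.5 FPKM in knockdown and 31.8 FPKM in control libraries, log2 fold change -0.48, limma adjusted p = 0.0357). SARS2 had a log2 fold change of 0.13 (limma adjusted p = 0.570) and RARS2 one of -0.14 (limma adjusted p = 0.422). The other neighbours in such pairs were not called: DDX19B, TERF2IP, WDR25, ING1, UBFD1 and LYRM4, besides HARS and HARS2, which face each other. Over all genes tested 3.94% fell. The differences between neighbours were not tested.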
